A study of Mus musculus with 56 samples.

Results

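A set of 7 genes, named by symbol, that control the transcription factor SREBP2 or the uptake of lipoproteins were followed in mouse liver: Srebf2, Scap, Insig1, Insig2, Stard4, Mylip and Lrp1. They are 7 of the 45513 genes listed in the count tables, each was matched by its Ensembl identifier in GENCODE vM21, and all 7 passed the filter on low counts that left 14314 genes for testing. They were listed by name and not by a cutoff on a measured value, with earlier results of these data known. Liver mRNA was sequenced from 56 female APOE*3Leiden.CETP mice in 7 groups of 8 mice, to compare tyrosine kinase inhibitors (TKIs) for their effects on lipids and vessels. TKIs of this kind block the BCR-ABL1 kinase of chronic myeloid leukemia.

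All mice, controls included, carried the human APOE*3Leiden and APOC1 genes and human CETP under its natural flanking regions, which gives them a human-like lipoprotein profile. They were used at 9 to 14 weeks of age and ate a Western-type diet with 15% cacao butter and 0.15% cholesterol, so every group was measured under dietary cholesterol. Control mice received the vehicle, 5% carboxymethyl cellulose. Imatinib was given at 150 mg/kg with 2 gavages per day, nilotinib at 10 or 30 mg/kg and ponatinib at 3 or 10 mg/kg in 1 gavage per day. The nilotinib and ponatinib mice had a further daily gavage of vehicle, and treatment with the TKIs lasted 16 weeks. A last group received L-NAME, an inhibitor of nitric oxide synthases, at 0.12 to 0.20% in drinking water, and its duration is not given in the sources used here. Whole liver was sequenced, so fewer cells of a type and less RNA per cell cannot be told apart.

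SREBP2 is made as a membrane protein of the endoplasmic reticulum, bound to its escort SCAP. When sterols are scarce, SCAP carries it to the Golgi, where proteases release the active factor, which switches on the enzymes of cholesterol synthesis and the LDL receptor. When sterols are plentiful, the INSIG proteins hold SCAP back. STARD4 moves cholesterol between membranes and its gene is a target of SREBP2. Mylip encodes IDOL, a ubiquitin ligase induced by the oxysterol receptor LXR that sends the LDL receptor to the lysosome. LRP1 is a large endocytic receptor of hepatocytes that takes up chylomicron and VLDL remnants.

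The upstream sequence of Srebf2 and of Insig1 is shown because both genes are known to respond to sterols or to nutrients through factors of the SREBP and E-box-binding families. They are the 162 bases at chr15:82147019-82147180 and the 201 bases at chr5:28071162-28071362, on the plus strand, from RefSeq on GRCm38.p6. Capitals mark an SRE core (TCACNCCA) in Srebf2 and an E-box (CACGTG) in Insig1.

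Srebf2 upstream: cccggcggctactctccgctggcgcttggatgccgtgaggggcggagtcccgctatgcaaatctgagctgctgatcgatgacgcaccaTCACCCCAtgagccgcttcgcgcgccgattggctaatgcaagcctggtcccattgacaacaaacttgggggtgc

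Insig1 upstream: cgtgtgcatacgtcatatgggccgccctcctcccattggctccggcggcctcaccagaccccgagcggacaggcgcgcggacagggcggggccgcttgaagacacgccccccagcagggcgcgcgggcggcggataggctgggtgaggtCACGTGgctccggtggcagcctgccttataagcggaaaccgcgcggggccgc

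The SRE core begins 74 bases before the first annotated base of Srebf2, and the E-box 52 bases before that of Insig1. Searched on both strands in the 250 bases before each of 32851 RefSeq start sites, the SRE core was present at 3.67% of the sites and the E-box at 6.02%. Of the members with an entry, Srebf2 held 1 SRE core, Insig1 and Scap held 1 E-box each, and Insig2, Mylip and Lrp1 held neither set of letters. Of 15 cholesterol synthesis enzymes with an entry, 2 had the SRE core and 3 the E-box. These are matches of letters and not shown sites of binding.

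Srebf2 (ENSMUSG00000022463) lies at chr15:82147181-82205379 on the plus strand of GRCm38 and hosts the microRNA miR-33 in an intron. The mature miR-33-5p, known to lower the cholesterol exporter ABCA1, lies at chr15:82198127-82198147 and overlaps no exon of Srebf2. Its sequence is shown with the seed, bases 2 to 8, in capitals.

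mmu-miR-33-5p: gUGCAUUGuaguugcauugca

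No read was counted on the gene of this microRNA in any of the 56 mice, so these mRNA libraries give no level for it beyond that of its host.

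The other members are Scap at chr9:110333288-110384950 (plus strand), Insig1 at chr5:28071363-28078662 (plus), Insig2 at chr1:121304353-121332589 (minus), Stard4 at chr18:33199355-33213862 (minus), Mylip at chr13:45389742-45412022 (plus) and Lrp1 at chr10:127538161-127621148 (minus). Values are given in CPM, the usual scaling of the reads of a gene to the total of its library, here with TMM factors on the totals. Per kilobase of annotated exon, the median level over the 56 mice was highest for Insig1 at 89.7 CPM per kb, followed by Lrp1 at 41.4 and Insig2 at 38.7 CPM per kb. Stard4 had 19.6, Scap 15.9, Srebf2 7.30 and Mylip 6.16 CPM per kb. At least 50 reads, the lowest count of Mylip, stood behind every value of every member.

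Reads counted on genes ranged from 5342379 to 17996732 per mouse, except for L-NAME mouse 2 with 97473341. The share of uniquely aligned reads that lay outside annotated genes, which includes reads in introns, had a median of 7.85% in control and 8.41% with ponatinib 3 mg/kg. Imatinib mice had a median of 9.80%, nilotinib mice 9.51% at 10 and 9.84% at 30 mg/kg, L-NAME mice 10.7% and ponatinib 10 mg/kg mice 10.9%, and L-NAME mouse 2 had the highest value, 16.8%. The highest control share was 8.68%. The lowest share was 8.81% with L-NAME, 8.89% with ponatinib 10 mg/kg, and 9.14% and 9.41% with nilotinib 10 and 30 mg/kg. In these groups the share did not overlap control, so a fit with it as a covariate cannot tell it apart from treatment. The 7 hepatocyte markers (Alb, Cps1, Tdo2, Hnf4a, Cyp2e1, Fgb and Apoa2) were above 0 in every mouse and summed to between 65226 and 142891 CPM. Their summed median was 108734 CPM in control, 86831 CPM with nilotinib 30 mg/kg, 92171 CPM with L-NAME and 102883 CPM with nilotinib 10 mg/kg. Against control 2 of 7 were called lower with nilotinib 30 mg/kg (median log2 fold change -0.27), 3 with L-NAME (-0.24), 1 with nilotinib 10 mg/kg (-0.17), 2 with ponatinib 10 mg/kg (0.02) and 1 with imatinib (-0.05), while 1 was called higher in each of these groups. Of all genes tested, 5.24%, 7.29%, 3.65%, 6.85% and 6.06% were called lower in the same order of groups. Called higher were 4.11%, 6.66%, 2.32%, 8.19% and 6.85%. The marker counts were not tested against these shares.

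A gene was called at an unadjusted p below 0.01 in edgeR's quasi-likelihood test, the threshold of the study, and the Benjamini-Hochberg adjusted p over the 14314 genes is given beside it. The 6 comparisons against control share the same 8 control mice. With imatinib, 1 of the 7 members was lower and 0 were higher, where 6.06% of the genes tested were lower and 6.85% higher. With nilotinib 10 mg/kg 3 members were lower and 0 higher, against 3.65% of the genes lower and 2.32% higher. With nilotinib 30 mg/kg it was again 3 lower and 0 higher, against 5.24% and 4.11%. With ponatinib 3 mg/kg 0 members were lower and 1 was higher, against 1.74% of the genes lower and 1.40% higher. With ponatinib 10 mg/kg 1 was lower and 1 higher, against 6.85% and 8.19%. With L-NAME 3 were lower and 0 higher, against 7.29% and 6.66%.

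**Figure D1:**
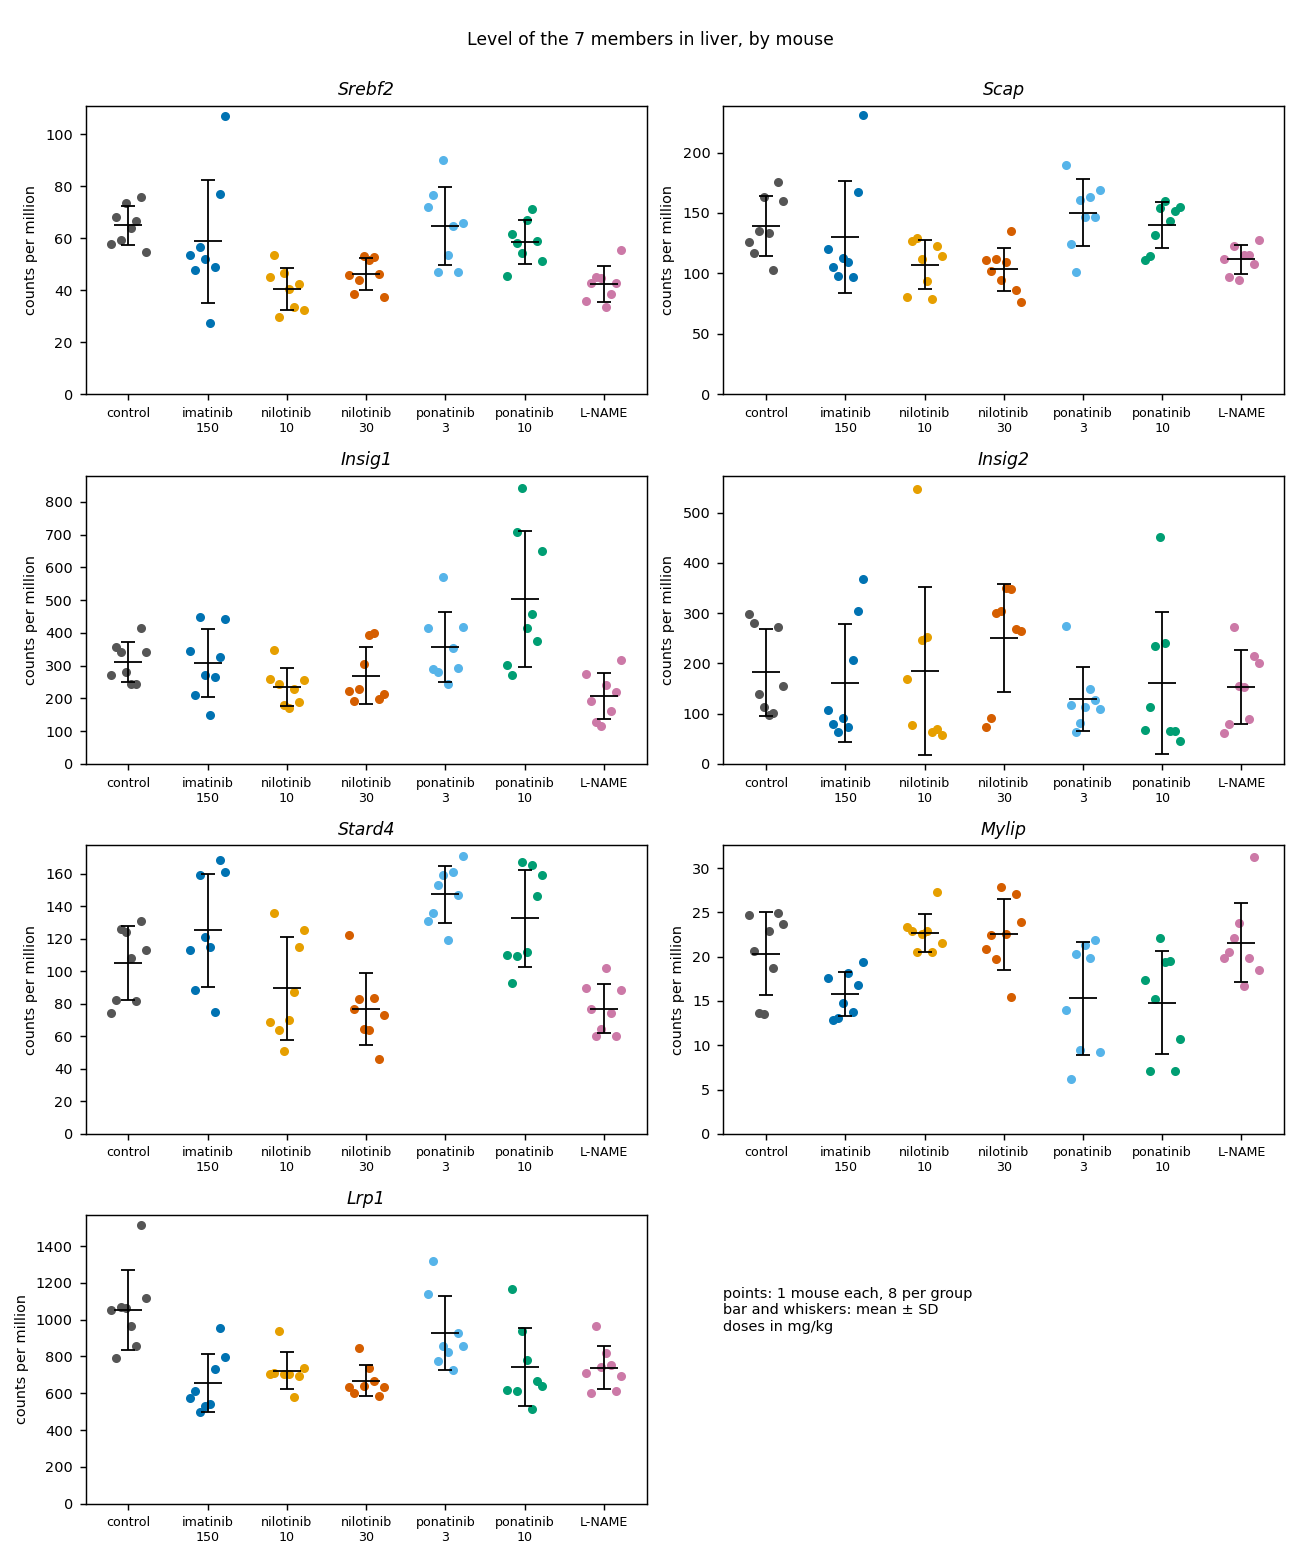
Level of the 7 members in CPM (vertical axis, from 0) in each group (horizontal axis, doses in mg/kg). Each point is 1 of 8 mice per group, and the bar with whiskers gives the mean ± SD. Every Srebf2 value of both nilotinib groups lies below the lowest control value of 54.6 CPM, and Insig2 spreads from 46.6 to 547 CPM. How many other genes separate like Srebf2 was not counted.

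Srebf2, the gene of SREBP2 itself, fell with both doses of nilotinib and with L-NAME. In control mice it had 64.9 ± 7.49 CPM (SD, n = 8), with a lowest value of 54.6, a median of 65.4 and a highest value of 75.7 CPM. With nilotinib 10 mg/kg the lowest, median and highest values were 29.7, 41.4 and 53.7 CPM. With nilotinib 30 mg/kg they were 37.4, 46.1 and 53.2 CPM. All 8 mice of each nilotinib dose were thus below every control mouse. How many of the other genes tested separated in this way was not counted.

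Srebf2 differed from control by a log2 fold change of -0.68 (SE 0.15, edgeR adjusted p = 0.0148) with nilotinib 10 mg/kg and -0.49 (SE 0.15, adjusted p = 0.043) with 30 mg/kg. With L-NAME the values ran from 33.4 over a median of 42.6 to 55.6 CPM, and 7 of 8 mice were below every control mouse. Its log2 fold change was -0.62 (SE 0.15, edgeR adjusted p = 0.00439). With the share of reads outside genes as a covariate in the same test, the difference was -0.65 for nilotinib 10 mg/kg, -0.56 for L-NAME and -0.44 for nilotinib 30 mg/kg, and the last was no longer called. Of the 7 hepatocyte markers, 1 was called lower with nilotinib 10 mg/kg, 2 with 30 mg/kg and 3 with L-NAME. In each of these 3 groups 1 was called higher. With imatinib and ponatinib 10 mg/kg, where Srebf2 was not called, 1 and 2 were lower, and 1 was higher in each. The part of hepatocyte markers in the Srebf2 values was not tested. The doses of nilotinib did not separate, with a log2 difference of 0.19 for 30 against 10 mg/kg and a 95% interval of -0.12 to 0.50.

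With ponatinib Srebf2 was not called. Its log2 fold change was 0.00 at 3 mg/kg, with a 95% interval of -0.31 to 0.30, and -0.15 at 10 mg/kg, with an interval of -0.46 to 0.16. The imatinib mice were spread most widely, from 27.3 over a median of 52.9 to 107 CPM, with 5 mice below and 2 mice above every control mouse. Their log2 fold change of -0.14 (SE 0.15) was not called.

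Scap, the escort of SREBP2, was lower with nilotinib. Control mice had between 103 and 176 CPM with a median of 134 CPM. With nilotinib 30 mg/kg the lowest, median and highest values were 76.1, 106 and 135 CPM, and with 10 mg/kg 78.7, 113 and 129 CPM. All 8 mice of each dose were below the control mean of 139 CPM, while the ranges overlapped.

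Scap had a log2 fold change of -0.43 (SE 0.14, called, edgeR adjusted p = 0.0542) with nilotinib 30 mg/kg, and the call was lost without control mouse 7 (-0.38). With 10 mg/kg it was -0.38 (SE 0.14, edgeR adjusted p = 0.166), called at the edge of the threshold, and the call was lost when any of 9 of the 16 mice was left out. With the share of reads outside genes as a covariate the 2 differences were -0.33 and -0.30, and neither was called. The median over the hepatocyte markers was -0.27 at 30 mg/kg and -0.17 at the lower dose. Their part in the Scap values was not tested. Scap with L-NAME had a log2 fold change of -0.32 (edgeR adjusted p = 0.138), not called. With imatinib (-0.10), ponatinib 3 mg/kg (0.11) and ponatinib 10 mg/kg (0.01) it was not called either, and 2 imatinib mice had 167 and 231 CPM.

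**Figure D2:**
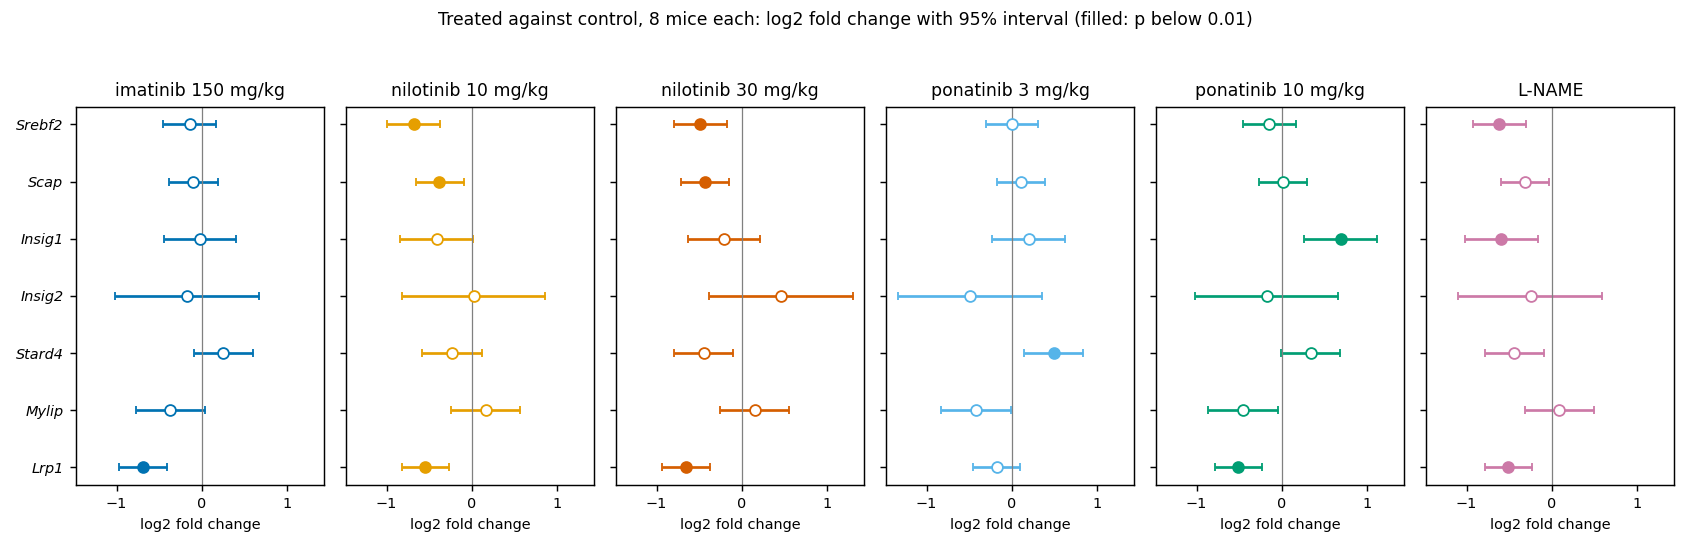
Log2 fold change of each member against control in the 6 treated groups (1 panel each, 8 mice per group), with 95% intervals; filled points have an unadjusted p below 0.01. Lrp1 is filled in 5 of 6 panels, Srebf2 in 3, and the intervals of Insig2 are the widest.

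Insig1 encodes the INSIG protein that SREBPs themselves induce, which closes a feedback loop. It rose with ponatinib 10 mg/kg and fell with L-NAME. Control mice had 312 ± 61.6 CPM (SD, n = 8), from 243 over a median of 311 to 416 CPM. With ponatinib 10 mg/kg the values were 271, 437 and 844 CPM for the lowest, median and highest mouse, and 4 of 8 mice were above every control mouse.

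Insig1 had a log2 fold change of 0.69 with ponatinib 10 mg/kg (SE 0.21, edgeR adjusted p = 0.0213), an increase of 61.2%. It was 0.54 and not called without ponatinib 10 mg/kg mouse 4, which had 844 CPM, and 0.57 and not called with the share of reads outside genes as a covariate. At 3 mg/kg the log2 fold change was 0.20, with a 95% interval of -0.23 to 0.62. The direct difference between the doses was 0.49 (edgeR adjusted p = 0.252) and was not called.

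With L-NAME Insig1 ran from 115 over a median of 206 to 316 CPM, and 6 of 8 mice were below every control mouse. This was a log2 fold change of -0.60 (SE 0.21, called, edgeR adjusted p = 0.0531). The call was lost when any of 8 of the 16 mice was left out, among them L-NAME mouse 2, the deepest library, without which it was -0.58. With nilotinib 10 and 30 mg/kg the log2 fold changes were -0.41 (95% interval -0.84 to 0.01) and -0.21 (-0.63 to 0.21), and with imatinib -0.02 (-0.44 to 0.40), none of them called.

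Insig2, the INSIG whose main liver transcript is known to be repressed by insulin and raised by fasting, differed more between mice of 1 group than between groups. Its SD of log2 CPM within groups was 0.93, larger than that of 70.8% of the genes tested, where the median gene had 0.50. For Insig1 the same SD was 0.45, for Mylip 0.42, for Stard4 0.36, for Srebf2 0.31, for Scap 0.28 and for Lrp1 0.27.

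In control mice Insig2 ran from 97.3 over a median of 148 to 299 CPM. With nilotinib 10 mg/kg it ran from 57.1 to 547 CPM (median 122), with ponatinib 10 mg/kg from 46.6 to 452 (median 90.9) and with imatinib from 62.6 to 367 (median 100). With nilotinib 30 mg/kg the range was 74.3 to 350 CPM and the median was 285, as 6 of 8 mice lay above the control mean. L-NAME mice had 60.9 to 273 CPM (median 154) and ponatinib 3 mg/kg mice 63.2 to 274 CPM (median 116).

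No comparison called Insig2. The log2 fold changes against control lay between -0.49 with ponatinib 3 mg/kg and 0.46 with nilotinib 30 mg/kg, each with an SE of 0.42, so that the 95% interval for nilotinib 30 mg/kg reached from -0.39 to 1.30. With 8 mice per group at this spread, the size and the sign of any difference stayed uncertain. With the share of reads outside genes as a covariate the sign turned for imatinib (0.06), ponatinib 10 mg/kg (0.29) and L-NAME (0.14), all without a call.

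Stard4, the cholesterol transfer protein, rose with ponatinib 3 mg/kg. Control mice had 105 ± 22.6 CPM (SD, n = 8), from 74.0 over a median of 110 to 131 CPM. With ponatinib 3 mg/kg the lowest, median and highest values were 119, 150 and 171 CPM, and 7 of 8 mice were above every control mouse. The difference of 0.49 on the log2 scale (SE 0.17) was called, but its edgeR adjusted p was 0.29 and the call was lost when any of 7 of the 16 mice was left out.

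At 10 mg/kg of ponatinib Stard4 had 133 ± 29.7 CPM and a log2 fold change of 0.34 (95% interval -0.01 to 0.68), which was not called. With imatinib it was 0.25 (-0.09 to 0.60). The nilotinib 30 mg/kg and L-NAME mice had lower values, with medians of 75.1 and 75.4 CPM. Their log2 fold changes were both -0.45 (edgeR adjusted p = 0.114 and 0.0822), just outside the threshold, and both were called when no filter on low counts was used. With nilotinib 10 mg/kg the log2 fold change was -0.23.

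Mylip was the least abundant member per kilobase and was not called in any comparison against control. Control mice had 13.5 to 24.9 CPM with a median of 21.8 CPM. The ponatinib mice divided, with 3 of 8 mice at each dose below every control mouse, and ran from 6.18 to 21.9 CPM at 3 mg/kg and from 7.06 to 22.1 CPM at 10 mg/kg. Their log2 fold changes were -0.42 (95% interval -0.83 to -0.01, edgeR adjusted p = 0.482) and -0.46 (-0.87 to -0.05, adjusted p = 0.13).

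With imatinib Mylip ran from 12.9 to 19.4 CPM and all 8 mice were below the control mean of 20.3 CPM, with a log2 fold change of -0.37 (edgeR adjusted p = 0.274). With nilotinib 10 and 30 mg/kg the values were 0.16 and 0.15, and with L-NAME 0.08. The 5 markers of sinusoidal endothelial cells (Stab2, Clec4g, Kdr, Lyve1 and Oit3) were at lower values with ponatinib too: the 3 mg/kg mice had a median log2 fold change of -0.59 over them and the 10 mg/kg mice one of -0.56, with 1 and 0 of 5 called, and 0 markers were at 0 in any mouse. With imatinib, where Mylip was at -0.37, the same markers had a median of 0.21, with 3 of 5 positive and 0 called. The summed level of these markers was 76.4 to 172 CPM (median 126) with ponatinib 3 mg/kg. With ponatinib 10 mg/kg it was 67.5 to 186 CPM (median 147), and in control 100 to 332 CPM (median 160). The 5 stellate cell and fibroblast markers had medians of -0.27 with ponatinib 3 mg/kg, -0.23 with 10 mg/kg and -0.23 with imatinib, with 0 called. The part of these cells in the Mylip values was not tested.

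Lrp1, the remnant receptor, was the member called most often. It fell with imatinib, with both doses of nilotinib, with ponatinib 10 mg/kg and with L-NAME. Control mice had 1055 ± 217 CPM (SD, n = 8), from 794 over a median of 1058 to 1516 CPM. With imatinib the lowest, median and highest values were 499, 594 and 952 CPM, and 6 of 8 mice were below every control mouse. The values were 586, 636 and 845 CPM with nilotinib 30 mg/kg and 577, 707 and 939 CPM with 10 mg/kg, with 7 of 8 mice of each dose below every control mouse.

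With ponatinib 10 mg/kg Lrp1 ran from 517 over a median of 654 to 1168 CPM, and with L-NAME from 604 over 728 to 966 CPM, with 6 of 8 mice of each group below every control mouse. The log2 fold change was -0.69 (SE 0.14) with imatinib, a decrease to 655 CPM on average, with an edgeR adjusted p of 0.000677. It was -0.66 (adjusted p = 0.002) with nilotinib 30 mg/kg, -0.55 (0.0271) with nilotinib 10 mg/kg, -0.52 (0.00805) with L-NAME and -0.51 (0.00883) with ponatinib 10 mg/kg, each adjusted p from edgeR. With ponatinib 3 mg/kg it was -0.18, with a 95% interval of -0.46 to 0.09, and was not called. None of these 5 calls was lost when any 1 mouse of the groups compared was left out.

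Lrp1 has the longest annotated exons of the members, 17.7 kb, and the log2 fold changes of long genes were below those of short genes in each treated group. Over the 1235 tested genes with more than 10 kb of exon, the median log2 fold change was -0.16 with imatinib, -0.13 with L-NAME, -0.12 with ponatinib 10 mg/kg, -0.07 with ponatinib 3 mg/kg, -0.09 with nilotinib 30 mg/kg and -0.05 with nilotinib 10 mg/kg. Over the 2739 genes under 2 kb it was 0.25, 0.27, 0.26, 0.10, 0.25 and 0.16 in the same order. Srebf2 (7.18 kb) and Scap (7.44 kb), also called lower with nilotinib, are in the class of 5 to 10 kb. Of that class 5.85% and 8.32% were called lower with nilotinib 10 and 30 mg/kg, and 11.3% with L-NAME. Under 2 kb it was 1.17%, 1.75% and 2.59%. The part of exon length in the Srebf2 and Scap values was not tested. With the share of reads outside genes as a covariate, Lrp1 stayed called with nilotinib 10 mg/kg (-0.38), nilotinib 30 mg/kg (-0.43) and imatinib (-0.51). It was -0.25 both with ponatinib 10 mg/kg and with L-NAME, and neither was called. The share did not overlap between control and the nilotinib, ponatinib 10 mg/kg or L-NAME mice. For those groups this fit cannot tell the share from treatment. How far exon length or RNA quality set the Lrp1 values was not tested. In each of the 5 groups in which Lrp1 fell, between 1 and 3 of the 7 hepatocyte markers were called lower and 1 was called higher, and their part in the Lrp1 values was not tested.

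**Figure D3:**
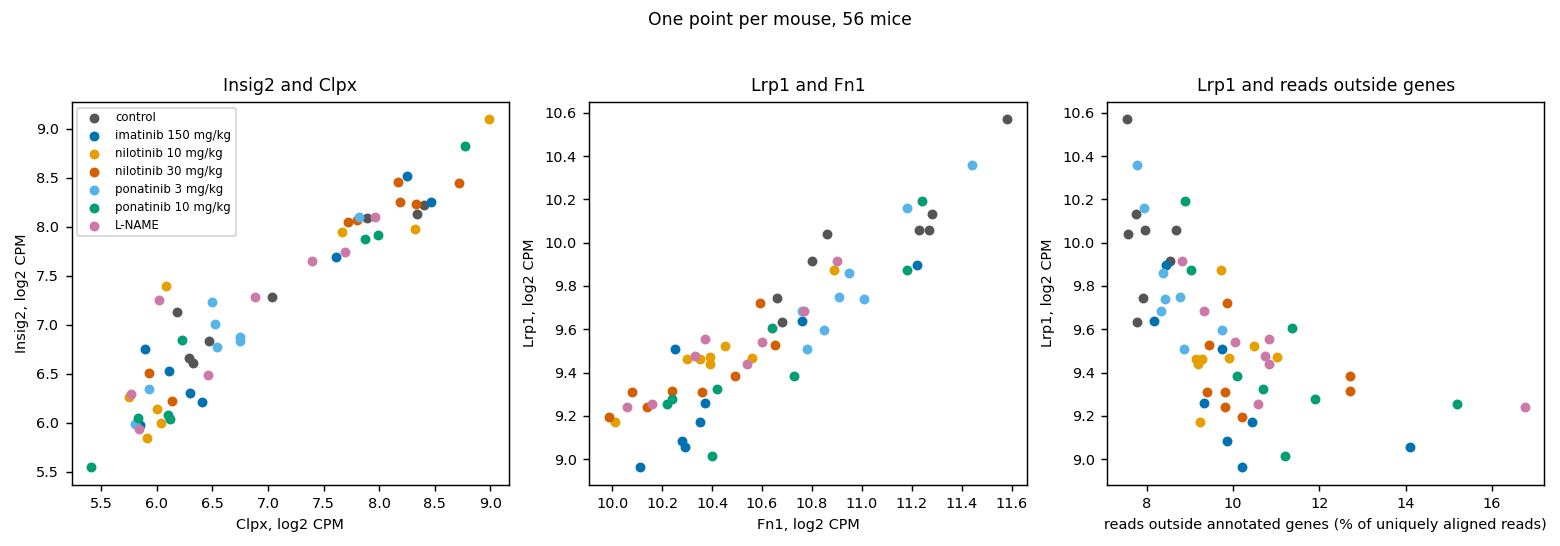
One point per mouse (56 mice, coloured by group): Insig2 against Clpx and Lrp1 against Fn1, both axes in log2 CPM, and Lrp1 in log2 CPM against the share of uniquely aligned reads outside annotated genes in percent. Insig2 rises with Clpx (r = 0.94) and Lrp1 with Fn1 (r = 0.92), and control mice sit at high Lrp1 and a low share outside genes.

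Ordered by their mean level, 2 of the 42 neighbouring pairs of groups, over the 7 members, differed by more than 1 pooled SD. These were Srebf2 in ponatinib 10 mg/kg above nilotinib 30 mg/kg, by 12.2 CPM at an SD of 7.34, and Mylip in control above imatinib, by 4.51 CPM at an SD of 3.75. The order for Srebf2 was control, ponatinib 3 mg/kg, imatinib, ponatinib 10 mg/kg, nilotinib 30 mg/kg, L-NAME and nilotinib 10 mg/kg. Lrp1 had the same first 2 groups, then ponatinib 10 mg/kg, L-NAME, nilotinib 10 mg/kg, nilotinib 30 mg/kg and imatinib. For Insig1 and Stard4 the 2 ponatinib groups came first, and L-NAME came last for Insig1 and nilotinib 30 mg/kg last for Stard4.

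The direct comparisons between drugs were made at different doses, so drug and dose cannot be told apart in them. Ponatinib 10 mg/kg against nilotinib 30 mg/kg had 3 members higher and 1 lower, where 2.78% of the genes tested were higher and 2.86% lower. Insig1 was higher by 0.90 on the log2 scale (SE 0.21, edgeR adjusted p = 0.0136), with 5 of 8 ponatinib mice above every nilotinib mouse. Stard4 was higher by 0.79 (SE 0.17, edgeR adjusted p = 0.00719), and Scap by 0.44 (SE 0.14, adjusted p = 0.0888). Mylip was lower, with a difference of -0.61 (SE 0.20, edgeR adjusted p = 0.112), and the call was lost when any of 5 of the 16 mice was left out, with values from -0.71 to -0.50. In the same comparison 4 of the 5 endothelial markers were lower, with a median of -0.74. For Srebf2 the difference was 0.34 (edgeR adjusted p = 0.303), not called.

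Imatinib and nilotinib share a phenylaminopyrimidine core, nilotinib having been derived from imatinib. Between imatinib 150 mg/kg and nilotinib 30 mg/kg, 1 member was higher and 0 were lower, where 2.98% of the genes were higher and 4.56% lower. Stard4 was higher with imatinib by 0.70 on the log2 scale (SE 0.17, edgeR adjusted p = 0.0104), with 125 ± 34.7 against 76.7 ± 22.2 CPM. Srebf2 and Scap differed by 0.35 and 0.34 (edgeR adjusted p = 0.225 and 0.199), not called, and Lrp1 by -0.03, with a 95% interval of -0.31 to 0.25.

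Against imatinib, ponatinib 10 mg/kg had 1 member higher and 0 lower, where 1.88% of the genes were higher and 2.21% lower. This was Insig1, with a log2 difference of 0.71 (SE 0.21, called, edgeR adjusted p = 0.0855). Between ponatinib 10 and 3 mg/kg 0 members were higher and 0 lower, where 3.13% of the genes were higher and 2.65% lower, and the largest differences were Insig1 at 0.49 and Lrp1 at -0.32 (edgeR adjusted p = 0.252 and 0.251). Between nilotinib 30 and 10 mg/kg it was again 0 and 0, where 0.685% were higher and 0.636% lower.

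Enzymes of cholesterol synthesis are known targets of SREBP2, and 20 of them were tested. With ponatinib 10 mg/kg 13 of 20 rose and 1 fell, where 8.19% of all genes tested rose and 6.85% fell. The median log2 fold change of the enzymes was 0.86, where the median of all genes was -0.01. Fdft1 (squalene synthase) rose by 0.85, Acat2 by 0.87, Mvd by 1.61 and Lss (lanosterol synthase) by 1.00 on the log2 scale, with edgeR adjusted p of 0.000764, 0.000834, 0.00109 and 0.00251. Srebf2 had a log2 fold change of -0.15 in these mice and Insig1 one of 0.69.

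With imatinib 8 of 20 enzymes rose and 0 fell, with a median of 0.56, where 6.85% of all genes tested rose and 6.06% fell. Fdft1 was at 0.77, Cyp51 at 0.82, Tm7sf2 at 0.69 and Mvd at 1.10 on the log2 scale. Insig1 was at -0.02 in these mice, with a 95% interval of -0.44 to 0.40, and was not called. With ponatinib 3 mg/kg 5 of 20 rose and 0 fell, with a median of 0.50 and none at an adjusted p below 0.05. Of all genes tested 1.40% rose and 1.74% fell at this dose.

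With nilotinib 30 mg/kg 2 of 20 fell and 0 rose, with a median of -0.20, where 5.24% of all genes tested fell and 4.11% rose. With nilotinib 10 mg/kg 3 fell and 0 rose, with a median of -0.32, against 3.65% and 2.32%. With L-NAME 6 fell and 0 rose, with a median of -0.55, against 7.29% and 6.66%. Ponatinib 10 mg/kg against nilotinib 30 mg/kg had 17 of 20 higher and 0 lower, where 2.78% of all genes were higher. Imatinib against nilotinib 30 mg/kg had 14 higher and 0 lower, where 2.98% were higher.

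**Figure D4:**
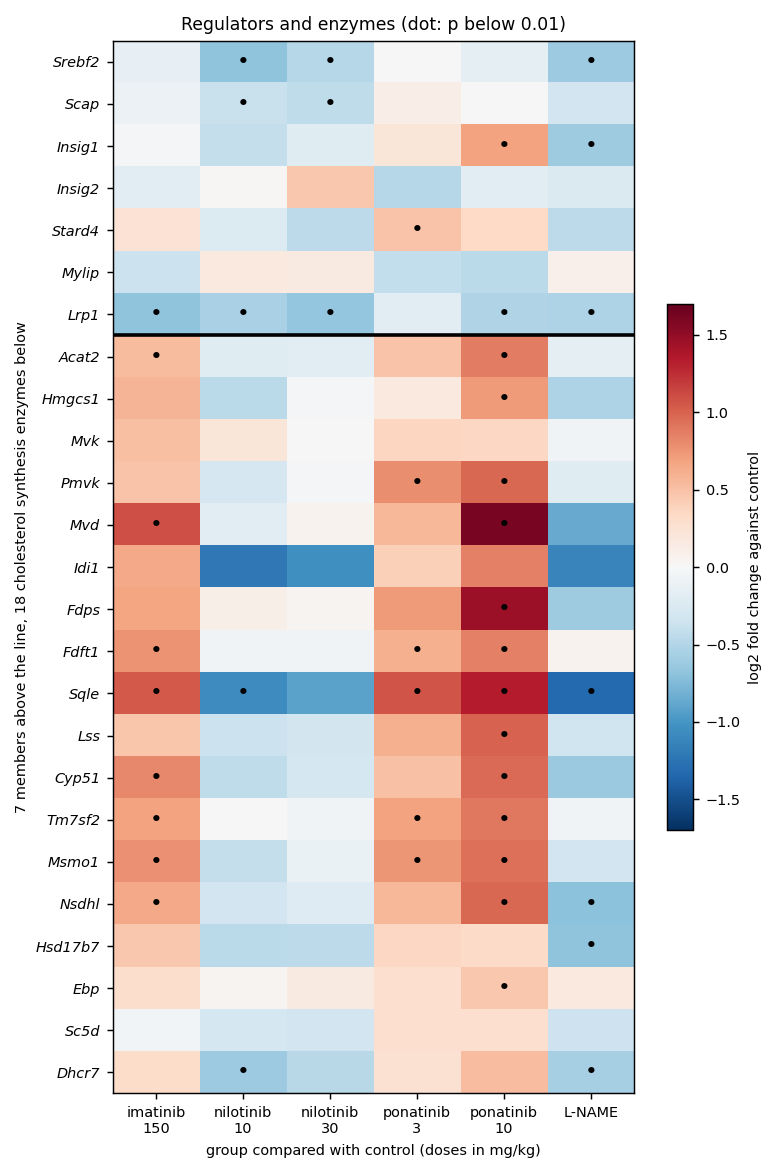
Log2 fold change against control (colour) of the 7 members above the line and 18 of the 20 cholesterol synthesis enzymes below it, in the 6 treated groups (columns); a dot marks an unadjusted p below 0.01. The enzyme rows are mostly red with ponatinib 10 mg/kg, where 13 of the 20 rose, while Srebf2 is pale there at -0.15.

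Of 12 genes for SREBP cleavage and INSIG turnover, 2 fell with imatinib, 1 with nilotinib 10 mg/kg, 2 with nilotinib 30 mg/kg, 1 with ponatinib 3 mg/kg, 2 with ponatinib 10 mg/kg and 4 with L-NAME, and 0 rose in any of these groups. Of all genes tested, 6.06%, 3.65%, 5.24%, 1.74%, 6.85% and 7.29% were lower in the same order of groups. The shares higher were 6.85%, 2.32%, 4.11%, 1.40%, 8.19% and 6.66%. These counts of 12 genes were not tested against those shares. Erlin1, whose product takes part in the degradation of proteins of the endoplasmic reticulum, fell by 0.60 on the log2 scale with imatinib (edgeR adjusted p = 0.0026), by 0.86 with nilotinib 30 mg/kg (9.52e-05) and by 0.51 with ponatinib 10 mg/kg (0.00805). It was also called with ponatinib 3 mg/kg (-0.37) and L-NAME (-0.56). Mbtps1, the site-1 protease that makes the first cut in SREBP2, had -0.33 with ponatinib 10 mg/kg and -0.41 with L-NAME.

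Mylip is a target of LXR, and of 8 other LXR targets 4 fell with imatinib, 2 with each dose of nilotinib, 1 with ponatinib 3 mg/kg, 4 with ponatinib 10 mg/kg and 1 with L-NAME. Pltp, the phospholipid transfer protein, was the only 1 to rise, with 0.50 at 3 mg/kg and 0.71 at 10 mg/kg of ponatinib. Of all genes tested, 6.06% were lower with imatinib, and 3.65% and 5.24% with nilotinib 10 and 30 mg/kg. With ponatinib 3 and 10 mg/kg 1.74% and 6.85% were lower and 1.40% and 8.19% higher, and with L-NAME 7.29% were lower. Abcg1, a cholesterol exporter of macrophages among other cells, was at -1.48 with imatinib and -1.33 with ponatinib 10 mg/kg (edgeR adjusted p = 5.22e-05 and 0.000184). Scd1, the stearoyl-CoA desaturase, fell in each of these but ponatinib 3 mg/kg, by 0.67 with ponatinib 10 mg/kg, 0.82 with nilotinib 30 mg/kg and 0.97 with imatinib on the log2 scale. With imatinib 2 of 5 Kupffer cell markers and 3 of 5 leukocyte markers were lower too, and the summed leukocyte markers were at 92.3 to 184 CPM against 152 to 451 CPM in control. With ponatinib 10 mg/kg, where Abcg1 fell too, 2 of 5 Kupffer cell markers were higher (median 0.26), and 1 of 5 leukocyte markers was lower (median -0.47). Their part in the LXR targets was not tested.

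Of 16 genes for relatives of LRP1, its chaperone and receptor recycling, 14 were tested, and Lrp2 and Lrp8 had too few reads. With imatinib 1 fell and 0 rose, where 6.06% of all genes tested fell and 6.85% rose. With nilotinib 10 mg/kg 2 fell and 1 rose, against 3.65% and 2.32%. With nilotinib 30 mg/kg 2 fell and 1 rose, against 5.24% and 4.11%. With ponatinib 3 mg/kg 0 moved, against 1.74% and 1.40%. With ponatinib 10 mg/kg 3 fell and 2 rose, against 6.85% and 8.19%. With L-NAME 2 fell and 1 rose, against 7.29% and 6.66%. Counts this small were not tested against those shares. Washc5, a subunit of the WASH complex that returns receptors from endosomes, fell in 5 of the 6 groups, by 0.66 on the log2 scale with imatinib (edgeR adjusted p = 0.00958), 0.74 with ponatinib 10 mg/kg (0.00264) and 0.64 with nilotinib 30 mg/kg (0.0187). Commd1, part of the same recycling machinery, had 0.94 with ponatinib 10 mg/kg and 0.72 with nilotinib 30 mg/kg. Lrp4 had -0.99 with nilotinib 30 mg/kg and Lrp5 -0.82 with ponatinib 10 mg/kg. Lrpap1, the chaperone that keeps LRP1 from binding ligands too early, had 0.39 with ponatinib 10 mg/kg (edgeR adjusted p = 0.0487).

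Of 13 genes of sterol transport and esterification, the field in which Stard4 works, 2 fell with imatinib. With nilotinib 10 and 30 mg/kg 1 and 4 fell, with ponatinib 3 and 10 mg/kg 1 and 4, and with L-NAME 3. With ponatinib 10 mg/kg 3 rose, and with L-NAME 2. Of all genes tested, 6.06%, 3.65%, 5.24%, 1.74%, 6.85% and 7.29% were lower in the same order of groups. With ponatinib 10 mg/kg 8.19% were higher, and with L-NAME 6.66%. These counts were not tested against those shares. Npc1, which lets cholesterol out of lysosomes, fell by 0.88 on the log2 scale with nilotinib 30 mg/kg (edgeR adjusted p = 9.52e-05). Soat1, which esterifies cholesterol in macrophages among other cells, fell by 1.16 with imatinib (edgeR adjusted p = 0.000508). Gramd1b, a carrier of plasma membrane cholesterol, had -1.08 and Gramd1a 0.60 with ponatinib 10 mg/kg.

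Across the 56 mice, the members fell into different patterns, given here as Pearson's r of log2 CPM without a test, since the mice share treatments and libraries share depth and RNA quality. Among the members Srebf2 and Scap were most alike (r = 0.66), followed by Scap and Stard4 (0.65) and Insig1 and Stard4 (0.62), while Insig2 and Insig1 had 0.09 and Mylip and Stard4 -0.45. After the group means were taken off, Srebf2 and Scap had 0.49, and Insig2 and Lrp1, at 0.35 before, had 0.52.

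Among 10329 other genes with a mean of at least 5 CPM, Srebf2 was most like Prkaca (0.74), Gm3571 (0.71) and Sqle (0.71), the last being squalene epoxidase. Scap was most like Fads1 (0.81), Ugt1a5 (0.80) and Acacb (0.79). Insig1 was most like Fasn (0.82), which encodes fatty acid synthase, Grb7 (0.78) and Elovl6 (0.77). Stard4 was most like Pdk1 (0.89) and Fads1 (0.83). Insig2 was most like Clpx (0.94), Cldn1 (0.90) and Slc16a1 (0.90), and with the group means taken off these values were 0.94, 0.91 and 0.92, so the likeness lay between mice of the same group. Mylip was most like Bgn (0.74), Emilin1 (0.71) and Pam (0.71), of which Bgn and Emilin1 encode matrix proteins. Lrp1 was most like Fn1 (0.92), C3 (0.90) and Pzp (0.88), which encode large secreted plasma proteins.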

How the data were processed

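Sequencing of liver mRNA covered 56 mice in 7 groups of 8, and the authors deposited the raw count of reads per Ensembl gene and mouse. The submitters' processing notes name TopHat2 2.0.14, Bowtie2 2.1.0, SAMtools 0.1.18 and HTSeq 0.6.1p1. Reads of several alignments (31.7 to 42.6% of alignments), outside genes (5.11 to 10.4%) or in overlapping genes (1.26 to 2.36%) were kept out of library sizes and tests; no strand setting is given in the sources used here, so counts cannot separate a gene from its antisense partner.

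The counts were fitted by edgeR 4.0.16 (R 4.3.3; TMM, filterByExpr with a minimum count of 10 and a minimum total of 15, quasi-likelihood test) in 1 fit of 7 groups without covariates. A call is an unadjusted p below 0.01, and all p-values and Benjamini-Hochberg adjusted p-values in the text are from edgeR unless DESeq2 is named. The scripts were tested on simulated counts. Standard errors are the absolute fold change divided by the square root of F. Levels are CPM, and log2 CPM for correlations used a prior count of 2. Alternatives were RLE size factors, no filter on low counts, DESeq2 1.42.0, an adjusted p below 0.05, only the 2 groups compared, and the share of reads outside genes as a covariate; leaving out each mouse was chosen after seeing the data.

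Members and gene lists were chosen with earlier results of these data known. Of each list, the up to 4 genes with the lowest p with imatinib, nilotinib 30 mg/kg and ponatinib 10 mg/kg were eligible to be named, and of each member the 3 genes most alike in pattern; some genes are not reported here. Other genes or groups named beside them were chosen after their values were seen. Mouse numbers follow the order of the samples and pair no mice. No batch is given in the labels.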

Additional observations from a re-analysis of the deposited data

Results flagged for a closer look

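In each group of 8 mice the highest and the lowest value of each member were compared with the other mice by Dixon's criterion for a gap that is large beside the group's range. Of 49 groups, 7 members in 7 groups, 5 held such a mouse, and chance flags about 1 in 20 groups. Insig2 reached 547 CPM in nilotinib 10 mg/kg mouse 3, where the next mouse had 252 CPM, and 274 CPM in ponatinib 3 mg/kg mouse 1, where the next had 150 CPM. Lrp1 reached 939 CPM in the same nilotinib 10 mg/kg mouse 3, with the next at 736 CPM, and 1516 CPM in control mouse 7, with the next at 1119 CPM. Mylip reached 27.3 CPM in nilotinib 10 mg/kg mouse 7, with the next at 23.4 CPM. Without control mouse 7 the Lrp1 differences from control stayed called, with log2 fold changes of -0.60 with imatinib, -0.57 and -0.46 with nilotinib 30 and 10 mg/kg, -0.43 with L-NAME and -0.41 with ponatinib 10 mg/kg.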

How the results depend on the processing

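Under the alternatives most single-member results kept both their sign and their side of the threshold. These were 47 of 48 with DESeq2, 47 with RLE size factors and 46 without a filter on low counts. With only the 2 groups compared they were 45, and 38 with the share of reads outside genes as a covariate. Uncalled results that stayed uncalled are among those counted as kept. With the covariate 6 calls were lost. With that covariate the number of members called fell from 3 to 1 with nilotinib 30 mg/kg and from 2 to 0 with ponatinib 10 mg/kg. Scap with nilotinib 10 mg/kg and Lrp1 with L-NAME lost their calls too. With the same covariate 4 uncalled log2 fold changes turned sign. These were Insig2 with imatinib (0.06), ponatinib 10 mg/kg (0.29) and L-NAME (0.14), and Srebf2 with ponatinib 3 mg/kg (0.01). At an adjusted p below 0.05 the count was 0 with ponatinib 3 mg/kg and for ponatinib 10 mg/kg against imatinib, and 2 against nilotinib 30 mg/kg. With only the 2 groups in the fit, imatinib against nilotinib 30 mg/kg had 2. The cause of these changes was not tested. The covariate did not overlap between control and the nilotinib, ponatinib 10 mg/kg or L-NAME mice. Its fit cannot separate it from treatment in those groups.

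Leaving out 1 mouse at a time gave 1 to 1 members called with imatinib, 2 to 3 with nilotinib 10 mg/kg, 2 to 4 with nilotinib 30 mg/kg, 0 to 1 with ponatinib 3 mg/kg, 2 to 2 with ponatinib 10 mg/kg and 2 to 4 with L-NAME. It gave 0 to 2 for ponatinib 10 against 3 mg/kg, 0 to 0 for nilotinib 30 against 10 mg/kg, 1 to 1 for ponatinib 10 mg/kg against imatinib, 3 to 4 for ponatinib 10 against nilotinib 30 mg/kg and 1 to 3 for imatinib against nilotinib 30 mg/kg. An unchanged count can hide a change of members. Against control, Insig1 lost its call without ponatinib 10 mg/kg mouse 4, and another member was called in its place. No paired analysis was possible because the labels give the mice no shared numbers.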
